A study of Mus musculus with 64 samples.

Results

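Cytosolic ribosomal protein genes were taken as every row whose symbol is Rpl or Rps followed by p0 to p2, by a, or by a number with an optional letter a, x, y or l and further digits, pseudogene (-ps) names excluded. The rule found 89 genes among the 35534 in each of the 2 deposited tables, and 83 of them had enough reads to be tested in each table. The 6 that did not were Rpl3l, Rpl6l, Rpl10l, Rpl32l, Rpl39l and Rps12l1. Mean levels were over 50 CPM (read counts scaled to a common library total with TMM factors) for 77 members in each table. Those 77 carry the group means below.

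The libraries are poly(A)-selected RNA sequencing of whole colon from wild-type Swiss Webster mice, an outbred stock, aged 8 to 12 weeks, fed standard chow under 12 h of light and 12 h of dark. Mice either lacked specific pathogens (SPF) or were raised without microbes (germ-free, GF), and GF mice were housed in ISOcages during treatment. Each kind received intraperitoneal vancomycin, 2.5 mg in 100 µl PBS, or 100 µl PBS alone, 2 times a day for 3 days and again on day 4. Vancomycin is a glycopeptide antibiotic against Gram-positive bacteria. Colon was profiled at zeitgeber time (ZT, hours after lights on) 5, 11, 17 and 23, which gives 16 groups of 4 libraries: SPF or GF, PBS or vancomycin, at each time. The labels do not state that each library is a separate animal. The p-values below take their error from differences among libraries, which may be technical, at least in part. Libraries of the GF PBS ZT17 group were not all repeats of 1 animal. Their means of 4 Y-linked genes were 6.02, 6.18, 5.96 and 0.75 log2 CPM.

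The cytosolic ribosome joins a small subunit, which reads the messenger RNA, to a large subunit, which forms peptide bonds. Each ribosome holds about equal numbers of nearly all of its proteins, and most of their messages start with a pyrimidine tract (5′ TOP) through which mTORC1 signalling controls their translation. In the gut, ribosome content is known to be high in dividing crypt cells and in secretory and lymphoid cells. Mammalian genomes also carry a large number of processed pseudogenes of these genes, which share long stretches of sequence with them.

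The start of the gene is shown first, because the tract is what these genes are known to share. RefSeq promoter windows of build GRCm38.p6 matched 64 of the 89 members. A C followed by at least 5 pyrimidines lay within 25 bases of the annotated start in 45 of the 64 (70.3%), against 37.6% of all 27025 promoters, and at the start itself in 11 (17.2%), against 1.72%. The letters CCGGAAG, searched on both strands over the whole promoter, were found in 39.1% of member promoters and 9.12% of all. TATAAA was found in 10.9% and 14.2%, and AAGATGG, whose first letters can be the last of CCGGAAG, in 14.1% and 6.48%. The 30-base windows below are placed around the tract, in capitals, or centred on the start where no tract was found (Rplp0). They show long tracts in Rpl27a, Rpl35 and Rpl15, and shorter ones in Rps6 and in the paralog Rps27l.

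Rpl27a, chr7:109519186-109519215, + strand: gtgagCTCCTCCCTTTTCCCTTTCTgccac

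Rpl35, chr2:39005115-39005144, - strand: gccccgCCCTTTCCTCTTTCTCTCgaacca

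Rpl15, chr14:18270968-18270997, - strand: gagaaagCCTTCTTCCTTTCCTCTggcggc

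Rpl26, chr11:68901580-68901609, + strand: cgtgtagttCTCTTTCCTTTTgcggccatc

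Rps6, chr4:86857349-86857378, - strand: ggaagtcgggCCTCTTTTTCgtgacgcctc

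Rps27l, chr9:66946063-66946092, + strand: actcctctccaCTCCTCCCCgccgcctcta

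Rplp0, chr5:115559452-115559481, + strand: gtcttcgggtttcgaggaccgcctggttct

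The second set of sequences shows how little separates a member from its copies. Among the transcripts of GENCODE vM21 (GRCm38), 591 other genes in the tables matched a member at 95% identity or more, for 80 of the 89 members, and 497 shared an unbroken run of 75 bases, the length of a read. Over 83 members with coding sequence of that length, a median of 80.2% of all 75-base coding windows occurred unchanged in a copy, and all of them did in 25 members. Such reads fit both genes equally well. Below are coding stretches of Rpl26, Rpl21, Rpl29 and Rps2 beside the copy with the most reads, the differing bases in capitals. Differences are named by the member's base, the coding position counted from 1 at the start codon, and the copy's base.

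Rpl26, coding bases 140 to 214: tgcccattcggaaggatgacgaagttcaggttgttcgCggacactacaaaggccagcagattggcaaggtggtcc

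Gm15772 (chromosome 5), same bases: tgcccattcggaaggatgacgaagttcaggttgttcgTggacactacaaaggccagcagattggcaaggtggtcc

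Rpl21, coding bases 299 to 373: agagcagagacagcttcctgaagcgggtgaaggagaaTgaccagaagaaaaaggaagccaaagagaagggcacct

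Gm10240 (chromosome 15), same bases: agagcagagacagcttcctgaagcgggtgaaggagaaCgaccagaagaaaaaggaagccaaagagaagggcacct

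Rpl29, coding bases 35 to 109: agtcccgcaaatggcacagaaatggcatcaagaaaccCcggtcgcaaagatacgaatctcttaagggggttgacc

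Gm13841 (chromosome 5), same bases: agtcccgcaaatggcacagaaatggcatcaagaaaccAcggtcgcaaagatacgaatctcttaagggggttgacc

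Rps2, coding bases 35 to 109: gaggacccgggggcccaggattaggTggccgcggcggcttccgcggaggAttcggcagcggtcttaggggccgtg

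Rps2-ps13 (chromosome X), same bases: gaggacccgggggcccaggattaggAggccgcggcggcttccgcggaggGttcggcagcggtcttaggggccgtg

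Rpl26 and Gm15772 differed at 2 of 435 coding bases (C177T and T288C), and Rpl21 and Gm10240 at 2 of 480 (T336C and T432C). Rpl29 and Gm13841 differed at 3 of 480 (C72A, C300T and T423C), and Rps2 and Rps2-ps13 at 7 of 879. A member's row is therefore described below both alone and summed with its copies, a sum that was chosen after seeing the data.

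The deposited estimated counts of a library summed to between 10044032 and 13615804 in the SPF table and between 10513966 and 15736087 in the GF table. Colon epithelium markers, Epcam, Krt8, Cdx2 and Muc2 among them, averaged 9.39 to 10.31 log2 CPM in the SPF libraries and 9.51 to 11.02 in the GF libraries, so the markers of the labelled tissue were present. Position along the colon was uneven in GF libraries: the mean of a distal colon list (Hoxb13, Hoxa13, Prac1 and Hoxd genes) was 3.07 to 4.92 log2 CPM in the SPF libraries but 0.47 to 2.25 in 14 of the 32 GF libraries and 2.74 to 4.91 in the other 18. The mean of 4 Y-linked genes was under 2 log2 CPM in 2 of the 16 GF libraries given PBS and in 9 of the 16 given vancomycin. SPF and GF tables were processed separately, so levels in them stand side by side without a test.

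**Figure D1:**
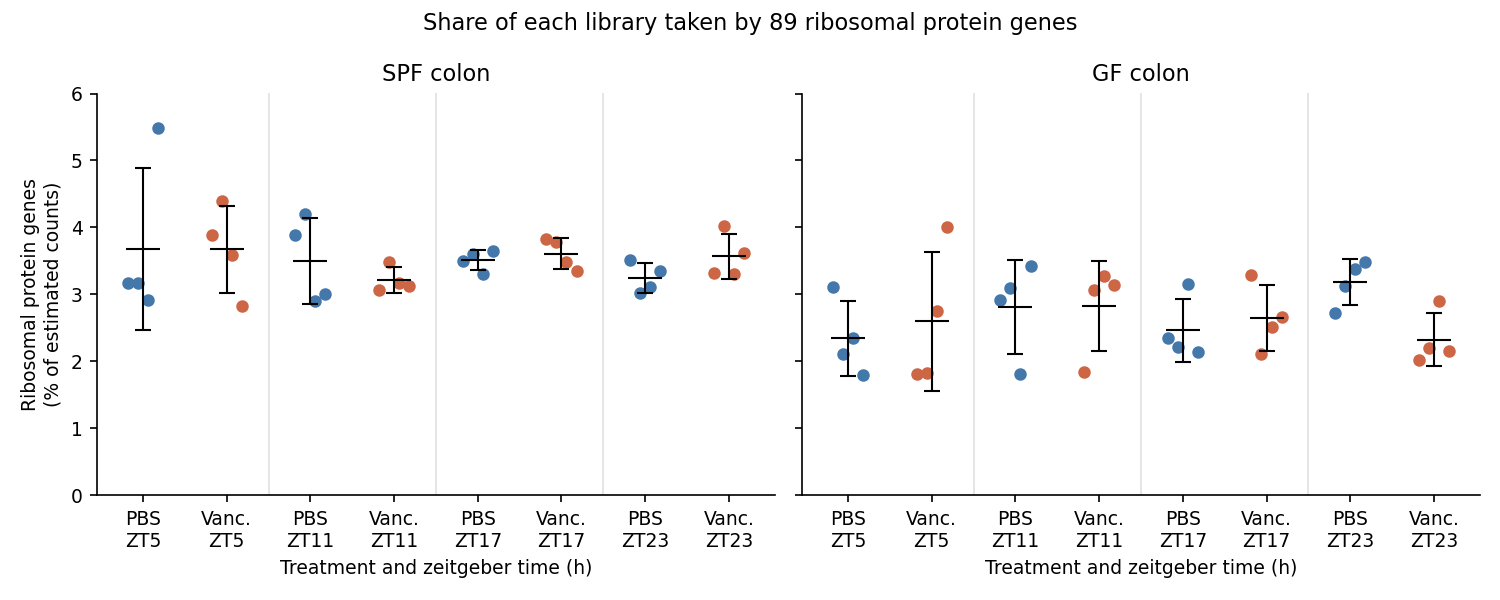
Percent of each library's estimated counts taken by the 89 ribosomal protein genes (vertical axis) by treatment and time (horizontal axis), SPF left and GF right, 4 points per group with the mean and SD in black. The highest point is SPF PBS ZT5 replicate 4 at 5.49%, and the GF groups reach from 1.80% to 4.01%.

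The 89 members together took 3.5% ± 0.53 (SD, n = 32) of the counts in SPF mice and 2.65% ± 0.61 (n = 32) in GF mice. In SPF mice the group means ran from 3.21% ± 0.19 (vancomycin ZT11) to 3.68% ± 1.21 (PBS ZT5, n = 4 each). The 4 SPF PBS ZT5 libraries held 3.17%, 3.17%, 2.92% and 5.49%, so the high mean and SD of that group come from replicate 4. Vancomycin minus PBS over the 4 times was 0.03 ± 0.20 percentage points (SE) in SPF and -0.10 ± 0.22 in GF mice, both smaller than the SD within a group (0.57 and 0.62). With the copies added, the share ran from 3.67% to 7.68% over SPF libraries and from 2.51% to 5.72% over GF libraries. In bulk tissue, fewer cells of a type and less RNA per cell cannot be told apart.

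Levels are given per kb of coding sequence where genes are compared, although reads from untranslated ends raise the values of very short genes. Of the acidic stalk proteins, which recruit translation factors to the large subunit, Rplp0 stood at 1672 CPM in SPF and 1267 CPM in GF libraries, Rplp1 at 1145 and 901, and Rplp2 at 407 and 322. Per kb the SPF levels were 1758 for Rplp0, 3347 for Rplp1 and 1179 for Rplp2. Rplp0, Rpl13a, Rps3a1, Rplp1 and Rpl41 had the most reads of all members in both tables. Rpl41, which encodes the smallest ribosomal protein, reached 1008 CPM in SPF and 861 CPM in GF libraries.

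Core subunits lay below these. Rpl3, near the peptidyl transferase centre, had 892 CPM in SPF and 663 in GF libraries, and Rps4x, an X-linked small-subunit gene, 867 and 681. Rpl10, which joins the large subunit late in its maturation, had 358 and 314 CPM, and Rpl10a, of the L1 stalk, 410 and 343. Rps6, the substrate of the S6 kinases, had 439 and 315 CPM, 49.1% and 46.3% of its level summed with copies. Rpsa, also known as the laminin receptor, had 392 and 292 CPM, and its copies raised the summed level to 1381 and 1040 CPM. The same pattern was extreme for Rpl5, Rpl12 and Rps2, whose own rows held 21.1, 24.1 and 18.8 CPM in SPF libraries. Summed with their copies they reached 747, 548 and 1124 CPM, so that the row of the gene held 2.83%, 4.40% and 1.67% of the sum. In all, 23 of the 77 members in SPF and 24 in GF libraries held under 50% of the summed level.

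The paralogs known from other tissues were close to absent. Rpl3l, a striated muscle form of Rpl3, averaged 0.0929 CPM in SPF and 0.0828 in GF libraries. Rpl39l, known from testis, averaged 0.0200 and 0.0229 CPM, Rpl10l, also a testis gene, was at 0.00261 and 0, and Rps12l1 was at 0 in all 64 libraries. The broadly expressed paralogs were well above them: Rpl22l1 stood at 89.4 and 81.5 CPM beside Rpl22 at 246 and 197. Rps27l, a p53-induced form, stood at 70.7 and 77.1 CPM beside Rps27 at 191 and 90.5, 43.8% and 27.7% of the sum of Rps27 with its copies. Rpl7l1 stood at 78.1 and 67.5 CPM and Rpl39 at 199 and 165. Rps4l stood lower, at 12.3 and 8.09 CPM. Rps4l, Rps3a2 and Rps3a3 are among the members for which no coding sequence of read length was found in GENCODE vM21. The tested members with the fewest reads were Rps3a3 (0.852 and 0.442 CPM) and Rps3a2 (1.18 and 0.707 CPM).

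Most members moved together across SPF libraries. In SPF mice 49 of the 77 correlated at Pearson r over 0.8 with the members' mean (median 0.85, 32 libraries). The median over genes outside the set with over 50 CPM was -0.03. GF libraries fall into 2 sets by distal Hox level, so no r over all of them is given. The points share library composition, and the values are descriptive. The lowest in SPF libraries were Rpl7l1 (-0.20), Rpl29 (-0.06), Rpl26 (0.20), Rps27l (0.28), Rpl27 (0.35) and Rpl21 (0.38). The spread over libraries, as SD of log2 CPM, was smallest for Rps3a1, Rpl7l1 (both 0.17), Rpl7 (0.18), Rpl8 and Rps4x (both 0.19) in SPF libraries. It was largest for Rpl21 (0.65), Rpl26 (0.59), Rpl29 (0.57), Rpl27 (0.42) and Rps27 (0.37).

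Most of the genes outside the set with the most similar pattern to its mean were copies of members. In SPF libraries the 10 nearest were Gm7536 (copy of Rpl27a, r = 0.97), Gm9794 (copy of Rpl23, 0.94), Eef1b2 (0.94), Gm10288 (copy of Rpl11), Tpt1-ps3, Gm15500 (copy of Rpl5), Rps23-ps1, Gm10275 (copy of Rpl12), Naca (0.92) and Rps18-ps3 (0.91). Eef1b2 is a translation elongation factor and Naca a ribosome-bound chaperone, and both have 5′ TOP messages.

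**Figure D2:**
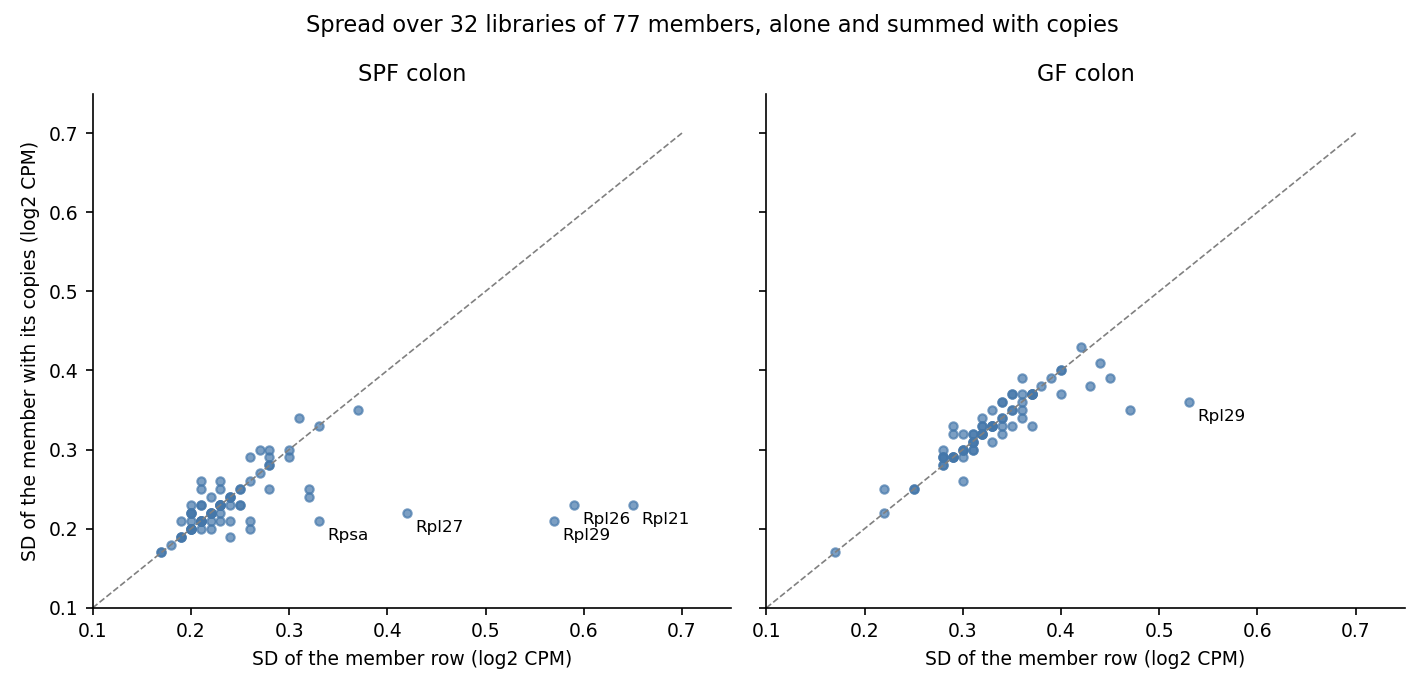
SD of log2 CPM over the 32 libraries of a table for each of the 77 members alone (horizontal axis) and summed with its near-identical copies (vertical axis), SPF left and GF right, with the line of equality. In SPF libraries Rpl21, Rpl26, Rpl29 and Rpl27 lie between 0.42 and 0.65 alone and between 0.21 and 0.23 with their copies.

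The members that spread most in SPF libraries did so alone but not with their copies. The SD of Rpl21 went from 0.65 to 0.23 when its copies were added, that of Rpl26 from 0.59 to 0.23, that of Rpl29 from 0.57 to 0.21 and that of Rpl27 from 0.42 to 0.22. With copies summed, no member of the 77 exceeded an SD of 0.35 in SPF libraries, and the highest in GF libraries was 0.43. The row of Rpl26 and that of Gm15772 added up to a sum that spread less than either, split at 3 ratios. Rpl26 held 95% or more of the pair in 12 SPF libraries, 66.0% to 73.9% in 9, and 37.5% to 42.1% in 11. In GF libraries the shares were 95% or more in 18, 58.7% to 67.5% in 12, and 35.2% to 37.3% in 2. No library lay between those ranges.

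Rpl29 and Gm13841 were split at separate ratios too. Rpl29 held 95% or more of the pair in 3 SPF libraries, 68.6% to 77.7% in 10 and 35.9% to 45.4% in 19. In GF libraries it held 95% or more in 24, 69.1% to 75.1% in 7 and 38.7% in 1. Rpl21 held 95% or more of its pair with Gm10240 in 16 SPF libraries, 54.7% to 59.3% in 3 and 22.4% to 49.1% in 13, while in all 32 GF libraries it held 15.5% to 21.7%. Whether libraries at different ratios differ in the sequence of either gene was not tested.

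In SPF mice no member was called (adjusted p under 0.05) for vancomycin over the 4 times. The test was edgeR's quasi-likelihood test, with Benjamini-Hochberg adjusted p over all genes and 16 libraries per treatment. Over all genes 0.809% were called in this comparison. At an unadjusted p under 0.05 there were 2 members of 83, against 16.2% of all genes. DESeq2 called 1 member, Rpl29, among 2.84% of all genes. The members' median log2 fold change was -0.03, against 0 over all genes tested. Of the 83 values 20 were positive and 63 negative, where 48.8% of all genes were positive. Members moved together, so these values are not independent. Their mean log2 CPM differed between treatments by -0.02 ± 0.07 (SE). Rpl29, a large-subunit protein, had the smallest p, at 0.43 ± 0.13 on the log2 scale (± SE; adjusted p = 0.108). Summed with its copies the value was 0.06 ± 0.06 (adjusted p = 0.693). Next came Rps4l, an autosomal relative of Rps4x, at -0.31 ± 0.14 (adjusted p = 0.267), and Rpl24, a large-subunit protein, at -0.14 ± 0.07 (adjusted p = 0.326).

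At single times the medians in SPF mice were -0.11 at ZT5, -0.14 at ZT11, 0.02 at ZT17 and 0.13 at ZT23. Of the 83 values at ZT23, 77 were positive, against 48.2% of all genes. Members moved together, so these values are not independent. The members' mean log2 CPM differed between treatments at ZT23 by 0.12 ± 0.14 (SE). The call rate over all genes was 0.0827% at ZT5, 0% at ZT11, 0.319% at ZT17 and 0% at ZT23, and a member was called at ZT17 only, Rpl26. At an unadjusted p under 0.05 there were 0 members at ZT5, 4 at ZT11, 2 at ZT17 and 2 at ZT23, against 14.2%, 9.86%, 8.65% and 7.34% of all genes. DESeq2 called 0, 0, 1 and 0 members at these times, against 1.56%, 0.567%, 0.869% and 0.248% of all genes. Among the smallest p at ZT5 were those of Rps3a2 (-2.96 ± 1.58, adjusted p = 0.391, at 1.18 CPM on average) and Rpl38 (-0.33 ± 0.18, adjusted p = 0.397). Rps3a2 was at -7.67 without vancomycin ZT5 replicate 1, and Rpl38 at -0.10 without PBS ZT5 replicate 4. At ZT11 it was Rpl29 (0.77 ± 0.27, adjusted p = 0.313), Rpl24 (-0.35 ± 0.14, adjusted p = 0.416) and Rpl26 (0.61 ± 0.25, adjusted p = 0.417). With copies summed, Rpl29 and Rpl26 at ZT11 were at -0.04 ± 0.12 and -0.20 ± 0.16.

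**Figure D3:**
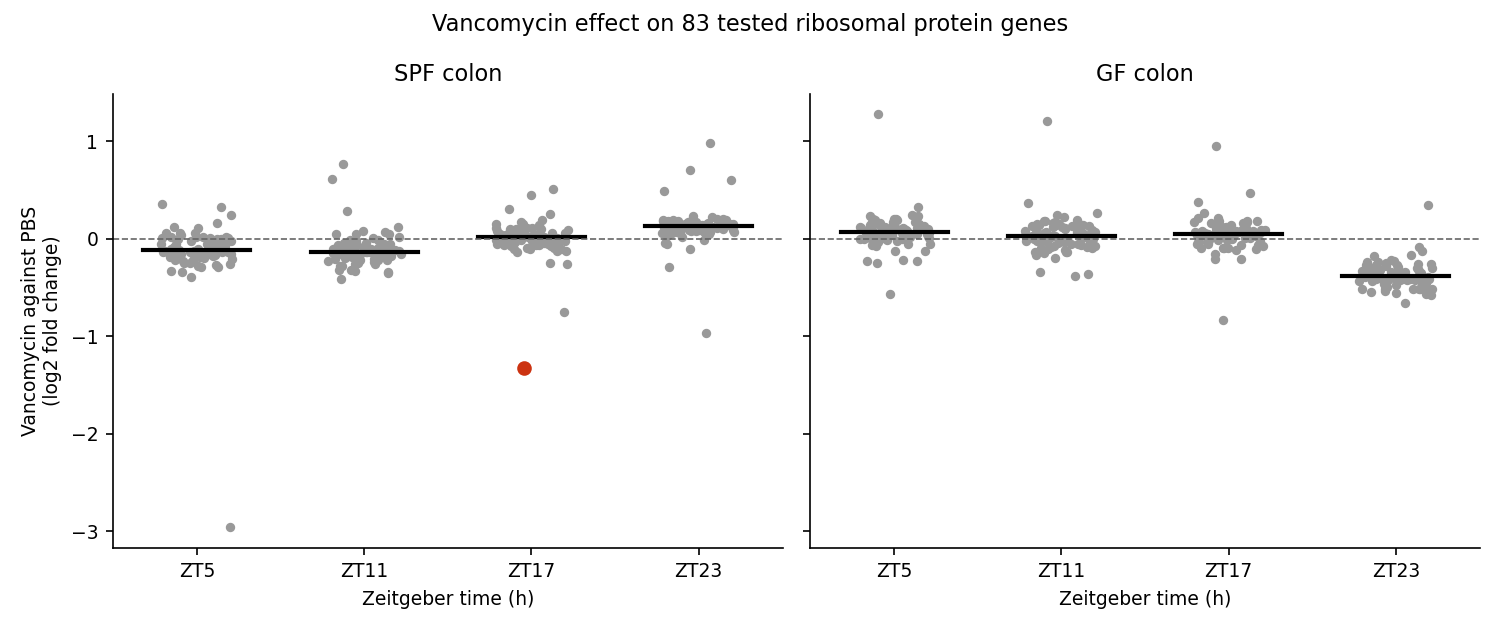
Log2 fold change of vancomycin against PBS (vertical axis) for the 83 tested ribosomal protein genes at each zeitgeber time (horizontal axis), SPF left and GF right, 1 grey point per gene, black bars at the median and the red point the only call, Rpl26 at ZT17 in SPF mice. The GF median at ZT23 lies at -0.38, and every other median lies between -0.14 and 0.13.

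Rpl26 encodes a protein at the exit of the peptide tunnel that also binds the p53 message. Its row, taken alone, was lower after vancomycin at ZT17 in SPF mice. The 4 PBS libraries held 369, 398, 351 and 393 CPM and the 4 vancomycin libraries 149, 152, 149 and 151 CPM, with no overlap between the groups. The difference was -1.33 ± 0.25 on the log2 scale (edgeR, adjusted p = 0.0119). Without vancomycin ZT17 replicate 1 the adjusted p was 0.0532. Gm15772 moved the other way: its 4 PBS libraries held 0.768, 0.453, 0.361 and 0.543 CPM and its 4 vancomycin libraries 235, 228, 249 and 216 CPM (adjusted p = 0.00358).

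The sum of Rpl26 and all its copies did not follow. It stood at 370, 399, 352 and 393 CPM after PBS and 384, 380, 399 and 368 CPM after vancomycin at ZT17, and the groups overlapped. Its log2 fold change was 0.02 ± 0.16 (adjusted p = 0.993). All 4 PBS libraries at ZT17 had Rpl26 at 99.8% to 99.9% of the pair, and all 4 vancomycin libraries at 37.5% to 41.2%.

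**Figure D4:**
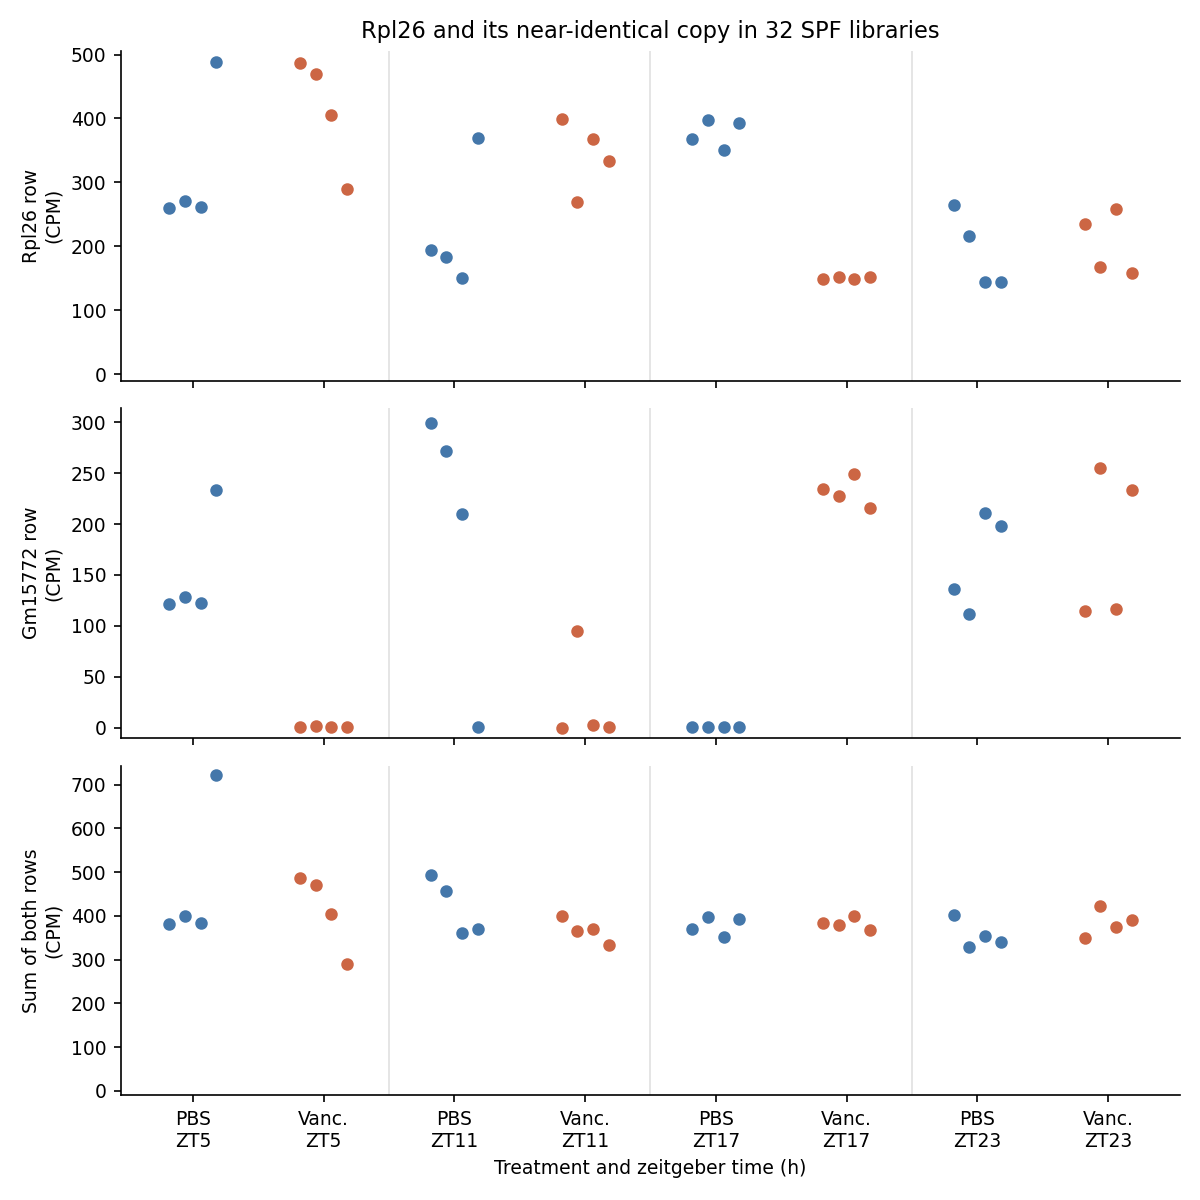
Level in CPM (vertical axes) of the Rpl26 row, of the row of its copy Gm15772 and of their sum in each of the 32 SPF libraries, by treatment and zeitgeber time (horizontal axis; PBS blue, vancomycin orange). At ZT17 both rows differ without overlap between treatments, while the sums of 351 to 398 CPM after PBS and 367 to 399 CPM after vancomycin overlap.

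The vancomycin effect on the Rpl26 row alone differed between times in SPF mice (treatment by time interaction, adjusted p = 0.0159). Of all genes 0.36% were called in this test, and Rpl26 was the only member. The other times held 260, 271, 262 and 489 CPM after PBS and 487, 469, 405 and 289 CPM after vancomycin at ZT5, with overlap. At ZT11 they were 194, 184, 150 and 370 CPM against 399, 270, 367 and 333 CPM. At ZT23 they were 265, 216, 144 and 143 CPM against 235, 168, 259 and 158 CPM. High and low libraries thus occurred in both treatments. With copies summed, the interaction had an adjusted p of 0.822.

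Genes close to Rpl26 in pattern over the 32 SPF libraries were Trp53-ps (r = 0.88), Cox10 (0.87), Ubb (0.85) and Nlrp1b (0.84). Cox10, Ubb and Nlrp1b lie on chromosome 11, as Rpl26 does. Of the 20 genes with the strongest correlation of either sign, 5 were on chromosome 11 in SPF and 1 in GF libraries. Chromosome 11 holds 7.76% of the genes tested in SPF mice, and 4 of the 54 genes called at ZT17 were on it. The strongest negative correlation was that of Gm8797 (-0.85), on chromosome 3. At ZT17, Nlrp1b, an inflammasome sensor, fell by 4.46 on the log2 scale (adjusted p = 0.000684) and Ubb, a ubiquitin gene, by 0.64 (adjusted p = 0.0460), while Cox10 had -0.87 (adjusted p = 0.121). Gm8797 rose by 0.72 (adjusted p = 0.00288). It held 258, 305, 278 and 273 CPM after PBS and 458, 445, 425 and 511 CPM after vancomycin. Nlrp1b averaged only 4.02 CPM in SPF libraries, and low and high libraries of it occurred in both treatments. It held 0.341, 0.312, 0.660 and 5.40 CPM after PBS at ZT11 and 0.264, 0.345, 0.172 and 0.490 after PBS at ZT23. After vancomycin at ZT5 it held 7.95, 7.54, 7.84 and 7.77 CPM.

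Rpl29 and Rpl21 had the next smallest p at ZT23 in SPF mice, neither of them called. Rpl29 stood at 111, 98.5, 209 and 98.6 CPM after PBS and 323, 255, 209 and 233 CPM after vancomycin (log2 fold change 0.98 ± 0.27, adjusted p = 0.296). Summed with copies it was at 272, 219, 293 and 238 CPM and 346, 339, 298 and 353 CPM (0.39 ± 0.12, adjusted p = 0.377). Rpl21 stood at 135, 239, 262 and 356 CPM after PBS and 116, 131, 126 and 135 CPM after vancomycin (-0.97 ± 0.33, adjusted p = 0.442). The copies summed to Rpl21 gave 0.03 ± 0.17 (adjusted p = 0.998). The row of its copy Gm10240 was higher after vancomycin on average. That row held 402, 253, 307 and 0 CPM after PBS and 376, 452, 387 and 427 CPM after vancomycin. Rps2 came after Rpl29 and Rpl21, at 0.49 ± 0.26 (adjusted p = 0.727), with 0.06 when copies were summed and 0.30 without vancomycin ZT23 replicate 2. At ZT17, after Rpl26, came Rps4l (-0.75 ± 0.28, adjusted p = 0.409) and Rps14 (0.31 ± 0.18, adjusted p = 0.667).

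Time of day after PBS in SPF mice called 4 members of 83 (4.82%), Rps2, Rpl27, Rpl26 and Rpl37a, below the 8.9% called over all genes. Rps2, a small-subunit protein near the messenger entry channel, held 26.4, 28.4, 18.2 and 28.99 CPM at ZT5 and 36.6, 19.6, 22.8 and 20.1 at ZT11. It held 17.7, 13.6, 7.57 and 12.4 CPM at ZT17 and 14.2, 11.9, 10.01 and 12.7 at ZT23 (adjusted p = 0.00894). Every ZT5 and ZT11 library was above every ZT17 and ZT23 library, and the log2 difference of ZT17 from ZT5 was -0.99 ± 0.26. Summed with copies, of which Rps2-ps13 is by far the largest, Rps2 had an adjusted p of 0.965.

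Rpl27, a large-subunit protein, held 234, 190, 204 and 326 CPM at ZT5, 216, 218, 159 and 175 at ZT11, 171, 151, 110 and 124 at ZT17, and 157, 117, 115 and 137 at ZT23 (adjusted p = 0.0150). All of the ZT5 libraries exceeded all of the ZT17 and ZT23 libraries. Its sum with copies had an adjusted p of 0.0819. For Rpl26 the value without PBS ZT23 replicate 3 was 0.0732. Rpl26 had an adjusted p of 0.0287 alone and 0.250 with copies. Rpl37a, of the large subunit, went from 291, 296, 274 and 496 CPM at ZT5 to 250, 221, 230 and 226 at ZT23 (adjusted p = 0.0481). Its adjusted p was 0.130 with copies, 0.0595 with the replicate number as a block, and 0.184 without PBS ZT5 replicate 4, the library with the highest share of ribosomal protein reads. With copies summed 1 member was called, Rpl29 (adjusted p = 0.0415), among 8.87% of all genes. With tissue makeup as covariates 4 members were called again, of which only Rpl27 was among the first 4 (the others were Rps18, Rps6 and Rpl27a), among 3.31% of all genes.

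Time of day after vancomycin in SPF mice called 5 members (6.02%), Rpl26, Rpl21, Rpl29, Rpl27 and Rps14, against 8.2% of all genes. All but Rps14 have copies with many reads, and with copies summed Rpl26 had an adjusted p of 0.857 (0.00181 alone), Rpl21 0.782 (0.0133 alone), Rpl29 0.236 (0.0220 alone) and Rpl27 0.492 (0.0313 alone). Rpl21 held 346, 352, 246 and 210 CPM at ZT11 and 404, 397, 394 and 353 at ZT17, against 116, 131, 126 and 135 at ZT23. Those ZT23 libraries lay below every other library given vancomycin.

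Rps14, a small-subunit protein, was the only one of these members with almost no copy reads, its own row being 99.98% of the sum. It held 916, 902, 744 and 504 CPM at ZT5, 694, 704, 873 and 769 at ZT11, 1168, 1004, 1228 and 1276 at ZT17, and 947, 1066, 922 and 909 at ZT23 (adjusted p = 0.0446). Each ZT17 library was above each ZT5 and ZT11 library (log2 difference of ZT17 from ZT5, 0.61 ± 0.18). With copies summed it was the only call (adjusted p = 0.0451), among 8.13% of all genes. The adjusted p was 0.0662 with the replicate number as a block, 0.114 with tissue makeup as covariates, and ran from 0.0139 to 0.108 with 1 library left out at a time, highest without vancomycin ZT17 replicate 4. The PBS libraries, tested alone, gave Rps14 no call.

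In GF mice edgeR called no member for vancomycin over the 4 times or at any single time. It called 0% of all genes in each of these 5 comparisons. At an unadjusted p under 0.05 there were 0 members over the 4 times, at ZT5, ZT11 and ZT17, against 3.96%, 3.58%, 4.91% and 4.47% of all genes, and 9 at ZT23. DESeq2 called 0 members in each, and 0.0295%, 0.0531%, 0.0491%, 0.0767% and 0.325% of all genes in the order over the 4 times, ZT5, ZT11, ZT17 and ZT23. Medians were -0.06 over the 4 times, 0.07 at ZT5, 0.03 at ZT11 and 0.05 at ZT17. At ZT23 the median was -0.38 (0 over all genes), with 82 of 83 values negative, where 49.6% of all genes were positive. These values are not independent, and the members' mean log2 CPM differed there by -0.38 ± 0.22 (SE). The 9 members at an unadjusted p under 0.05, all lower, were 10.8% of those tested. Of all genes 12.1% reached that p in either direction and 6.93% lower.

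The ZT23 libraries given PBS took 2.72%, 3.13%, 3.38% and 3.49% of reads for ribosomal proteins and those given vancomycin 2.03%, 2.21%, 2.91% and 2.16%. One vancomycin library, replicate 3, lay within the PBS range. Rpl5, which with Rpl11 and the 5S RNA can bind Mdm2, was at 25.8, 22.7, 28.1 and 27.8 CPM after PBS and 24.8, 14.8, 18.7 and 16.6 CPM after vancomycin (-0.48 ± 0.20, adjusted p = 0.349). Rps13 was at -0.49 ± 0.21 (adjusted p = 0.354) and Rps20 at -0.57 ± 0.24 (adjusted p = 0.361), both small-subunit proteins.

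Tissue makeup moved with this difference. None of the 4 GF PBS libraries at ZT23 was low for the distal Hox list, and 3 of the 4 vancomycin libraries were (replicates 1, 2 and 4). The Y-linked mean was under 2 log2 CPM in 1 PBS and 3 vancomycin libraries. With the smooth muscle, B cell and distal Hox levels as covariates, the ZT23 median of the members was 0.03. Without the libraries of low distal Hox level, which leaves 4 PBS libraries and 1 vancomycin library and assumes that this library varies like the other groups, it was -0.10. At ZT17 the same covariates moved the median from 0.05 to -0.22, with 0 members and 0% of all genes called.

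**Figure D5:**
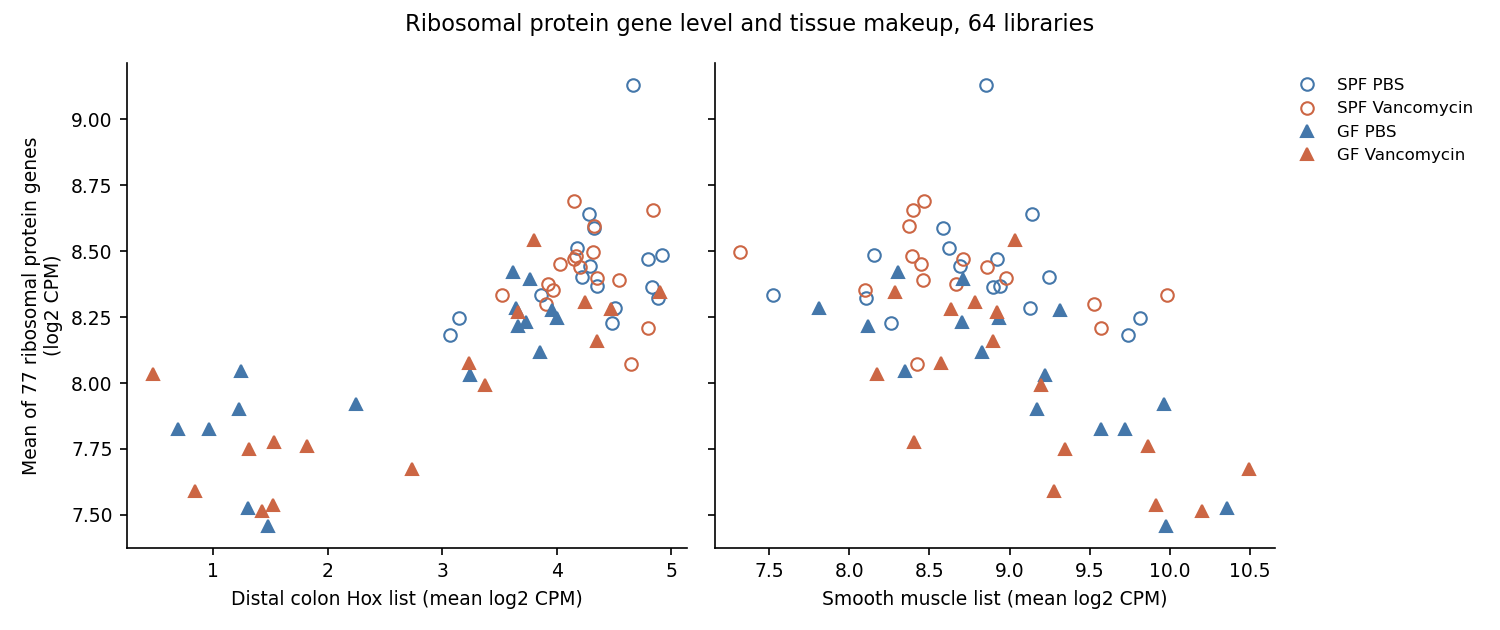
Mean log2 CPM of the 77 ribosomal protein genes (vertical axis) against the mean log2 CPM of the distal colon Hox list (left) and of the smooth muscle list (right), 1 point per library, circles for SPF and triangles for GF, blue for PBS and orange for vancomycin. The tables were processed separately. The 14 GF libraries with a Hox mean under 2.5 lie between 7.46 and 8.05, and the other 18 GF libraries between 7.67 and 8.54.

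Over all GF libraries the members' mean was lower where the distal Hox list was low. The 14 libraries of low Hox level had 1.80% to 2.75% of their reads in ribosomal proteins (median 2.13%), and the other 18 had 2.11% to 4.01% (median 3.12%). Within those sets the mean of the 77 members correlated with the Hox level at r = -0.19 (n = 14) and 0.60 (n = 18), and with the smooth muscle list (Acta2, Myh11, Des and 9 more) at -0.69 and -0.64. In the 32 SPF libraries r was 0.25 with the Hox list and -0.20 with the smooth muscle list. The strongest r of a tissue list there was -0.54, with fat markers (Adipoq, Plin1, Lep and others). Fat was not among the covariates. The part of tissue makeup in the members' level was not tested beyond the covariate fits.

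Time of day called no member in GF mice after PBS or after vancomycin, where 0.142% of all genes were called in each. At an unadjusted p under 0.05 there were 0 members after PBS and 1 after vancomycin, Rps2 (adjusted p = 0.504), against 14.7% and 9.51% of all genes. DESeq2 called 0 members in both, and 2.48% and 1.08% of all genes. After PBS the smallest p belonged to Rpl5 (adjusted p = 0.360), Rps13 (0.365) and Rpl27a (0.380), and after vancomycin Rps23 (0.571) and Rpl22l1 (0.629) followed Rps2. With tissue makeup as covariates Rps27, a small-subunit protein, was called after PBS (adjusted p = 0.00523), among 0.608% of all genes. The treatment by time interaction called no member and 0% of all genes, with 0 members at an unadjusted p under 0.05 (8.29% of all genes) and 0 called by DESeq2 (0.0531% of all genes). Its smallest p belonged to Rps2 (adjusted p = 0.597), Rpl5 (0.615) and Rplp2 (0.677).

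The difference between the SPF and the GF vancomycin effect, tested in 1 fit of all 64 libraries, called no member and 0% of all genes. At an unadjusted p under 0.05, reached by 9.94% of all genes, there was 1 member, Rpl29 (log2 difference 0.56 ± 0.23, adjusted p = 0.437), with 0.19 ± 0.14 (adjusted p = 0.689) when copies were summed. Rps20 (0.20 ± 0.14, adjusted p = 0.646) and Rpl21 (-0.26 ± 0.19, adjusted p = 0.687) followed. The members' median was 0.03. DESeq2 was not run on this difference.

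Genes that work with the ribosome were counted from lists. After vancomycin over the 4 times in SPF mice 0 of 20 translation factors and other 5′ TOP genes, 0 of 40 ribosome assembly factors, 0 of 16 genes of RNA polymerase I transcription, 0 of 78 mitochondrial ribosomal proteins and 0 of 5 cytosolic ribosomal proteins under other names were called, with medians of -0.03, 0.07, 0.09, 0.04 and -0.04. At an unadjusted p under 0.05 they held 1, 7, 1, 7 and 0 genes, where 16.2% of all genes reached that p and 0.809% were called. Of 30 mTORC1 pathway genes 1 rose, Ddit4 (0.61 ± 0.12, adjusted p = 0.0184), a stress-induced inhibitor of mTORC1. In GF mice these 6 lists held 0 calls over the 4 times and 3 genes at an unadjusted p under 0.05, which 3.96% of all genes reached.

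In SPF mice time of day after PBS called 1 of 40 assembly factors, 1 of 16 polymerase I genes, 1 of 78 mitochondrial ribosomal proteins, 3 of 30 mTORC1 genes and none of the other 2 lists, against 8.9% of all genes. They were Bop1 among the assembly factors (adjusted p = 0.00980), Taf1a of polymerase I (0.0344), Mrps36 (0.0246), and Deptor (0.0271), Rragd (0.00727) and Flcn (0.0256) of the mTORC1 list. After vancomycin the calls were 3 of 40 assembly factors, 1 of 20 translation factors, 1 of 78 mitochondrial ribosomal proteins, 3 of 30 mTORC1 genes and none of the other 2 lists, against 8.2% of all genes. They were Nop14 (0.00484), Nop16 (0.0374) and Nop2 (0.0466), the elongation factor Eef1g (0.0434), Mrps36 (0.00829), and Rps6kb1 (0.0276), Rragd (0.0204) and Eif4ebp1 (0.00663). Over the 32 SPF libraries the members' mean correlated with the mean of the translation factor list at r = 0.89 and with that of the mTORC1 list at -0.05.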

How the data were processed

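Values were the authors' deposited estimated counts per gene, in 1 table of 32 SPF and 1 of 32 GF libraries, with 0 columns of other samples. Salmon, build GRCm39, cutadapt 3.5 and Trim Galore 0.6.2 are named in the submitters' processing notes; normalization and the use of strand: not given in the sources used here. The tables are named as normalized and single values are not whole while library totals stay on the scale of reads, so genes were probably rescaled within a library before deposit, and levels between genes rest on that unknown step. Salmon divides reads that fit several transcripts, so genes with near-identical copies have uncertain values. Libraries were matched to groups by column name, and totals are in the report. Estimated counts were rounded, genes with at least 10 counts in at least 4 libraries were kept (16938 SPF, 16951 GF, 16604 in both), and each table was fitted with edgeR 4.0.16 (R 4.3.3; TMM, quasi-likelihood F test, 8 group means, Benjamini-Hochberg, threshold 0.05, two-sided). The design had named this test for counts. The SPF minus GF difference used 16 group means and differences within a table.

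Alternatives were DESeq2 1.42.0, its size factors, scaling without members, no filter, a replicate block, 3 tissue makeup covariates and each library left out; copies summed and GF libraries of low distal Hox level left out were added after seeing the data. Replicate numbers do not pair libraries (mean correlation of same-numbered deviations 0.03 in SPF and -0.03 in GF). Named genes are, per comparison, called members or the 3 of smallest p, fixed role and paralog names, the extremes in level and spread, called list genes and the 10 most alike genes; chromosome 11 neighbours and copies were singled out after seeing values. A result that this rule names at ZT5 is not reported here. Members and lists were chosen with earlier results of these data known. Recovery was measured on simulated data for the vancomycin effect over the 4 times only, not for single times or time of day. On SPF data the fit recovered 69% of 1.5-fold and 88% of 2-fold changes among 16938 genes. On GF data it recovered 48% and 76% among 16951.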

Additional observations from a re-analysis of the deposited data

Results flagged for a closer look

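In groups of 4 libraries, a value was singled out where its gap to the nearest other exceeded what 95% of such groups show. Independent groups would hold such a value in about 1 in 20 cases. The 80 groups examined share libraries and overlapping measures, so their count is not set against that rate. Of the 80 groups 8 had such a value. SPF PBS ZT5 replicate 4 accounts for 5 of them: ribosomal proteins took 5.49% of its reads (2.92% to 3.17% in the other 3), Rpl26 stood at 489 CPM (260 to 271), Rpl26 with its copies at 723 CPM (382 to 401), Rpl37a at 496 CPM (274 to 296) and Rps14 at 1265 CPM (659 to 755). In GF vancomycin ZT11 replicate 1 the members took 1.84% of reads, below the 3.07% to 3.27% of the other 3, and its distal Hox level was 1.52 log2 CPM, where the others had 3.66 to 4.91. Rpl29 stood at 209 CPM in SPF PBS ZT23 replicate 3, above 98.5 to 111 in the other 3, and Rps2 at 23.7 CPM in SPF vancomycin ZT23 replicate 2, above 14.7 to 15.2.

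The vancomycin effect on the Rpl26 row alone differed between times in SPF mice by the interaction test (adjusted p = 0.0159). The sum of Rpl26 with its copies gave 0.822.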

How the results depend on the processing

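In all 17 comparisons the number of members called stayed within 1.5 times its main value under DESeq2's size factors. It also did with scaling without ribosomal protein genes and with no filter on low counts. The replicate block moved none of the 17 counts by that much, giving 3 calls in place of 4 for time after PBS and 4 in place of 5 after vancomycin, where Rpl37a (adjusted p = 0.0595) and Rps14 (0.0662) were lost. DESeq2 called 1 member over the 4 times in SPF mice (Rpl29, adjusted p = 0.0498). Tissue makeup covariates left 2 calls for time after vancomycin in SPF mice (2.41% of members, 2.44% of all genes) and gave 1 for time after PBS in GF mice. Copies summed left 0 calls at ZT17, 0 in the interaction, 1 for time after PBS and 1 for time after vancomycin in SPF mice. Summing also changed the sign of Rpl29 (-0.04 ± 0.12, SE) and Rpl26 (-0.20 ± 0.16) at ZT11 in SPF mice. The same held for Rpl26 (0.02 ± 0.16) at ZT17 and Rpl21 (0.03 ± 0.17) at ZT23. In GF mice it held for Rps2 (-0.03 ± 0.20) at ZT17. None of these summed values was called. Leaving out GF libraries of low Hox level changed the sign of Rpl7l1 at ZT5 (0.17, from -0.23). Of 4 libraries, 3 were left out of each of GF PBS ZT5, PBS ZT17, vancomycin ZT5 and vancomycin ZT23. The ZT5 value thus sets 1 PBS library against 1 vancomycin library. Main counts were already 0 in the 9 comparisons refitted this way, and calls from this refit are not read. The cause of these changes was not tested.

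With 1 library left out at a time, calls in SPF mice ranged from 0 to 1 over the 4 times (1 without vancomycin ZT11 replicate 3), from 0 to 1 at ZT17 (0 without vancomycin ZT17 replicate 1), from 0 to 1 in the interaction (0 without vancomycin ZT17 replicate 1 or 3), from 2 to 5 for time after PBS and from 2 to 6 after vancomycin. For time after PBS 2 calls were left without PBS ZT11 replicate 3, ZT17 replicate 2, ZT17 replicate 4 or ZT23 replicate 4. For time after vancomycin 2 were left without vancomycin ZT17 replicate 1 or ZT23 replicate 1, and 3 without ZT5 replicate 4, ZT11 replicate 1, ZT17 replicate 4, ZT23 replicate 3 or ZT23 replicate 4. The other 12 counts were 0 in every refit. The mean log2 fold change of the members over the 4 times was -0.03 in SPF mice (-0.06 to 0.03 with a library left out) and -0.05 in GF mice (-0.12 to -0.01).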
